A study of Mus musculus with 6 samples.

Results

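The urea cycle and periportal nitrogen genes described here were 10 genes listed by name, Cps1, Nags, Otc, Ass1, Asl, Arg1, Slc25a13, Slc25a15, Gls2 and Hal, out of 55487 genes in the count table of mouse liver. All 10 passed the filter on low counts, as did 14046 genes in all. Liver RNA was sequenced from 3 mice that had received GalNAc-siNC and 3 mice that had received GalNAc-siRnf10, with 1 library per mouse. GalNAc is a sugar ligand that binds the asialoglycoprotein receptor of hepatocytes and carries a linked siRNA into them, siNC is a control siRNA, and siRnf10 is directed at the mRNA of the ubiquitin ligase Rnf10 (the study's methods name its conjugate GalNAc-siRnf10-2). The mice of both groups were wild-type males kept on normal chow with free access to food, the conjugates were injected under the skin, the livers were taken at 17 weeks of age, and all libraries carry the same batch label. The methods name C57BL/6J as the strain given these conjugates. The dose and days of injection in these mice, and the hour and feeding state at collection, are not given in the sources used here. Separate GalNAc-siRnf10 sequences were not compared, so that an effect of Rnf10 loss and of this one siRNA cannot be told apart here. The study compared transcripts matching a short stretch of the siRNA's guide strand with background transcripts, and reported no strong off-target effects. That comparison was not repeated here.

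The liver turns toxic ammonia into urea by a cycle of reactions that begins in hepatocyte mitochondria and ends in the cytosol. Ammonia and bicarbonate are joined to carbamoyl phosphate by Cps1, which needs the N-acetylglutamate that Nags makes. Otc transfers the carbamoyl group to ornithine, Ass1 adds aspartate to the resulting citrulline, Asl splits the product into arginine and fumarate, and Arg1 releases urea and restores ornithine. Slc25a15 carries ornithine into mitochondria and citrulline out of them, and Slc25a13 exports the aspartate that Ass1 uses. Gls2 is the liver glutaminase, which frees ammonia from glutamine, and Hal is the first enzyme of histidine breakdown, which also frees ammonia. In the liver lobule this pathway is strongest around the portal vein, whereas glutamine synthetase (Glul) is confined to the last hepatocytes before the central vein.

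Of the 10 genes, 7 were higher and 0 lower with GalNAc-siRnf10, where a gene counts as called if its Benjamini-Hochberg adjusted p, over all genes tested, was under 0.05 in the quasi-likelihood test of edgeR. Among all genes tested, 6.71% were called higher and 7.28% lower, 14.0% in either direction. The genes called were Cps1, Otc, Ass1, Asl, Arg1, Slc25a15 and Gls2, with log2 fold changes between 0.41 and 0.84. Nags and Hal overlapped between the groups, and Slc25a13 was higher without reaching the threshold. In 8 of the 10 genes every GalNAc-siRnf10-treated mouse was above every GalNAc-siNC-treated mouse, a pattern that 16.5% of all tested genes shared. These genes are abundant, and among the 3512 tested genes whose normalized counts averaged 1000 or more the shares were larger, with 13.4% called higher, 12.3% called lower and 27.4% above without overlap. The median log2 fold change was 0.45 over the 10 genes, 0.02 over the 3512 abundant genes and 0.0022 over all genes tested.

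Together the 10 genes took 0.768%, 0.770% and 0.738% of all counts with GalNAc-siNC and 1.08%, 1.09% and 1.10% with GalNAc-siRnf10, each value being 1 mouse. The groups did not overlap, with means of 0.759% ± 0.0181 and 1.09% ± 0.0115 (SD, n = 3 mice each). Cps1 alone rose from 0.290% ± 0.0222 to 0.419% ± 0.00832 of all counts.

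**Figure D1:**
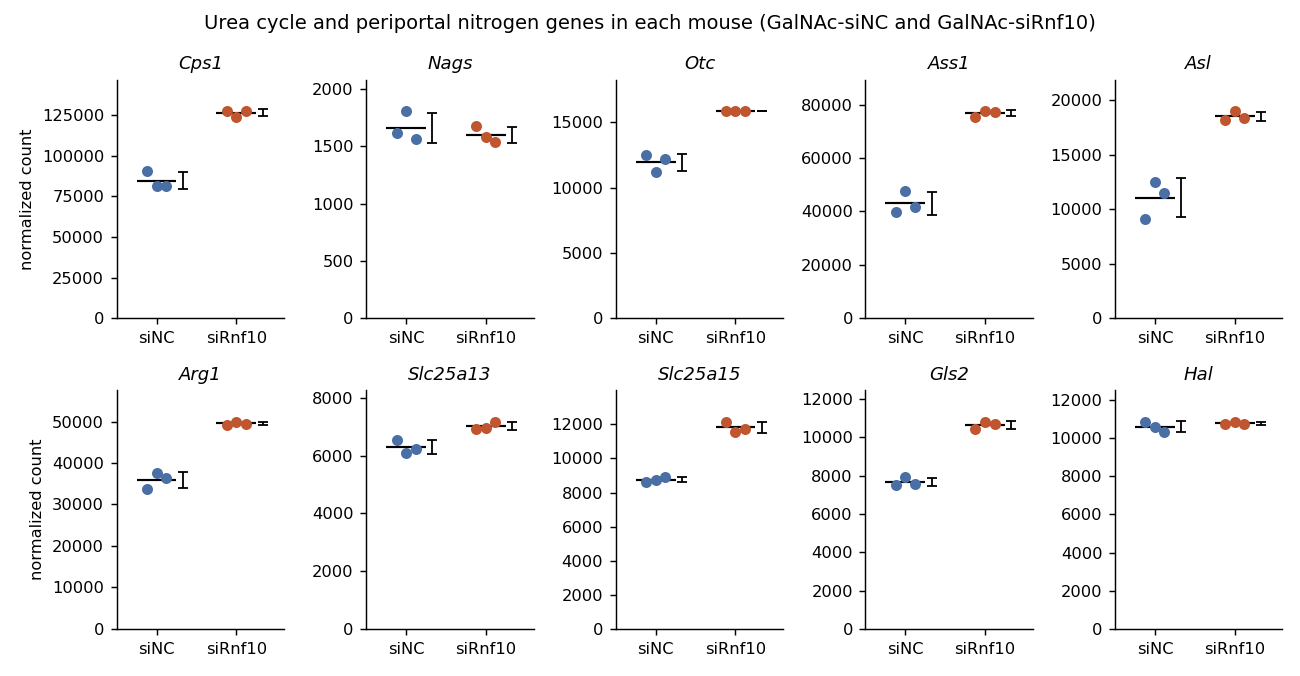
Normalized count (y axis, from 0) of each of the 10 genes in the 3 GalNAc-siNC-treated mice (blue) and the 3 GalNAc-siRnf10-treated mice (orange). Each point is 1 mouse, the line is the group mean and the bar beside it is ± 1 SD. The groups stand apart in 8 genes and overlap in Nags and Hal.

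Total counts per library were between 26854377 and 33058645, at which 3 counts make up 9.07e-06% to 1.12e-05% of a library (counting error only). Values below are normalized counts, meaning counts scaled to the mean effective library size after edgeR's TMM normalization. Rnf10, the target, was at 3869, 4536 and 4040 normalized counts with GalNAc-siNC and at 1738, 1820 and 1793 with GalNAc-siRnf10, with a log2 fold change of -1.22 (edgeR, adjusted p = 3.29e-09). Libraries of GalNAc-siNC-treated mouse 1 and the other mice of its group differed most, with a chi-square per gene of 30.0 and 30.7, against 10.3 between GalNAc-siNC-treated mice 2 and 3 and 4.70 to 5.37 between GalNAc-siRnf10-treated mice. The log2 fold changes of Cps1, Slc25a13, Ass1, Asl and Arg1 are therefore also given without mouse 1. Nothing in the labels says whether the mice came from separate cages or litters. The edgeR p-values set the difference between groups against the spread within groups of these 6 animals. In that fit the spread of a gene is drawn toward that of all genes.

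The sequences shown first bear on how far the values of Ass1 can be trusted. A processed pseudogene, Gm5424 (ENSMUSG00000046687), lies on the plus strand of chromosome 10 (GRCm38, 62071123 to 62072362) and matches the Ass1 transcript at 1234 of 1240 aligned bases (99.5%), with 6 differences in the 1239 coding bases. Of the 50-base words of the Ass1 transcript, 55.3% also occur in Gm5424. The lines below give positions 571 to 630 of transcript Ass1-201, counted from its 5′ end and within its coding part, across the junction of exons 6 and 7 (chr2:31486494-31488585 with the intron), and the same stretch of Gm5424. The capital marks the one difference in this window, T31C, with Ass1 first and position 1 being the 5′-most base of the window.
Ass1: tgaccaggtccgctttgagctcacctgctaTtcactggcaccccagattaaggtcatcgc
Gm5424: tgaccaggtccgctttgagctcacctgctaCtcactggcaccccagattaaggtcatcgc

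The promoters shown next are those of 5 genes for which the RefSeq table used here (GRCm38.p6) had an entry, Ass1 and Otc from the called genes and Slc25a13, Nags and Hal from those not called. Windows run 5′ to 3′ on the gene's strand from 250 bases before to 50 bases after the transcription start. The table had 7 windows for 6 of the 10 genes, Slc25a15 having 2 starts. Capitals mark matches to the motifs searched, as described after the sequences.
Ass1 chr2:31470020-31470319 (+): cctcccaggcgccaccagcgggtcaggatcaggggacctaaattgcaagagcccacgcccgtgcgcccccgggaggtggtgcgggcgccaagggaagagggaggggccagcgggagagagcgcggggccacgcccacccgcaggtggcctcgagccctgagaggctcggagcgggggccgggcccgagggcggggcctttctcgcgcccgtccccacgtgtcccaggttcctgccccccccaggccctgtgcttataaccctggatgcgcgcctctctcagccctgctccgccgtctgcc
Otc chrX:10252055-10252354 (+): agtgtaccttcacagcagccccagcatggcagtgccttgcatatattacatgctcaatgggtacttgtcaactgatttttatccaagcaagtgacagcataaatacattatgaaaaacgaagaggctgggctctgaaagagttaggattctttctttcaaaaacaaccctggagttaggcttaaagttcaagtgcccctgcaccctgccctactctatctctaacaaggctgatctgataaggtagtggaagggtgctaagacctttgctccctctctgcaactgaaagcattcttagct
Slc25a13 chr6:6217124-6217423 (-): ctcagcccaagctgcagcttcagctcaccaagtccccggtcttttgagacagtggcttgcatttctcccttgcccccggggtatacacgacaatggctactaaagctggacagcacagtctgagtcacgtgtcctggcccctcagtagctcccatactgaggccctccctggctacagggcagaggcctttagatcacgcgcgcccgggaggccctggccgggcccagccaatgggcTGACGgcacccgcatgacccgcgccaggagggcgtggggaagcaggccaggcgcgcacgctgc
Nags chr11:102145263-102145562 (+): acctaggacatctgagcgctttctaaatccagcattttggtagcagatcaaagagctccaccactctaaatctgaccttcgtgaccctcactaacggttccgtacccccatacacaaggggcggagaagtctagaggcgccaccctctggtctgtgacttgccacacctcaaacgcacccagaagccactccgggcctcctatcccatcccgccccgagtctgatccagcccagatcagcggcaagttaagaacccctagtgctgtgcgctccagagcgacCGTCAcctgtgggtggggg
Hal chr10:93488518-93488817 (+): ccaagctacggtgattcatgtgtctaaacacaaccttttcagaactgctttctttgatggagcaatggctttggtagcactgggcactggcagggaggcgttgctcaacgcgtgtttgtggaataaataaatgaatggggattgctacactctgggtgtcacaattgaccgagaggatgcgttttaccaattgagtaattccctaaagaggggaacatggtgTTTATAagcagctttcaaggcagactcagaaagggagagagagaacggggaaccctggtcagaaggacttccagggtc

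Motifs were searched by their letters on both strands, and none overlapped another within these windows. The half-site of the cAMP response element, TGACG, was found in 2 of the 7 windows, in Slc25a13 beginning 13 bases before the start and in Nags, on the opposite strand, 31 bases after it, and in 20.8% of all 32851 promoters of the table. TATAAA, the TATA box, was found in 1 of the 7 windows, in Hal on the opposite strand 28 bases before the start, and in 13.6% of all promoters. The half-site of the glucocorticoid response element (AGAACA, 19% of all promoters), a core of the HNF4A site (CAAAGTCCA, 0.475%) and the C/EBP site (TTGCNNCAA, 2.08%) were found in 0 of the 7 windows. None of the 4 windows of called genes (Ass1, Otc and both starts of Slc25a15) held any of these letters. The windows differed in base composition, from 44.3% GC in Otc and 47.7% in Hal to 74% in Ass1 and 79% at a start of Slc25a15. Such matches describe letters, not bound sites.

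Only mRNA was counted, and neither the proteins nor the flux through these steps was measured. For the entry of nitrogen in the mitochondria, the mRNAs of Gls2, Nags and Cps1 were read. Gls2 (ENSMUSG00000044005, chromosome 10 plus strand, GRCm38 128194457 to 128210004) was at 7523, 7924 and 7564 normalized counts with GalNAc-siNC and at 10426, 10823 and 10703 with GalNAc-siRnf10. The lowest GalNAc-siRnf10-treated mouse was above the highest GalNAc-siNC-treated mouse. Gls2 rose by a log2 fold change of 0.47 (95% interval 0.36 to 0.59, edgeR, adjusted p = 1.04e-05). Its exons overlap those of Spryd4 on the opposite strand by 97 bases, 2.79% of the gene model, and Spryd4 had at most 1024 counts in a mouse against at least 7655 for Gls2. Nags (ENSMUSG00000048217, chromosome 11 plus strand, 102145513 to 102149477) was at 1615, 1809 and 1563 with GalNAc-siNC and at 1676, 1583 and 1534 with GalNAc-siRnf10. These ranges overlapped, and the log2 fold change was -0.06 (95% interval -0.22 to 0.10, edgeR, adjusted p = 0.686, exact two-sided permutation test, p = 0.6). The sign of that value turned when GC content and gene length were corrected for (0.01) and without GalNAc-siNC-treated mouse 2 (0.0058). An overlap of 443 bases with Gm11586 on the opposite strand touches 15.6% of the Nags model, but Gm11586 had at most 5 counts in any mouse.

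Cps1 (ENSMUSG00000025991, chromosome 1 plus strand, 67123026 to 67231259), the entry enzyme that Nags serves, had the largest counts of the 10 genes. Its normalized count was 90793, 81512 and 81585 with GalNAc-siNC and 127582, 123926 and 127656 with GalNAc-siRnf10. The groups lay far apart relative to their spread, and Cps1 rose by a log2 fold change of 0.58 (95% interval 0.47 to 0.69, edgeR, adjusted p = 6.52e-07). GalNAc-siNC-treated mouse 1 was the highest of its group here, and the log2 fold change was 0.63 without it. The ratio of Cps1 to Nags counts within a library was 56.2, 45.1 and 52.2 with GalNAc-siNC and 76.1, 78.3 and 83.2 with GalNAc-siRnf10.

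For the ornithine and citrulline steps the mRNAs of Otc and Slc25a15 were read, and for the supply of aspartate that of Slc25a13. Otc (ENSMUSG00000031173, chromosome X plus strand, 10252305 to 10321024) was at 12477, 11201 and 12179 normalized counts with GalNAc-siNC and at 15891, 15872 and 15874 with GalNAc-siRnf10. The 3 GalNAc-siRnf10-treated mice were almost level, all above the GalNAc-siNC-treated mice, and Otc rose by a log2 fold change of 0.41 (95% interval 0.29 to 0.53, edgeR, adjusted p = 6.79e-05). Slc25a15 (ENSMUSG00000031482, chromosome 8 minus strand, 22375551 to 22398597) was at 8620, 8708 and 8900 with GalNAc-siNC and at 12162, 11569 and 11721 with GalNAc-siRnf10. It rose without overlap by a log2 fold change of 0.43 (95% interval 0.32 to 0.55, edgeR, adjusted p = 2.23e-05). Slc25a13 (ENSMUSG00000015112, chromosome 6 minus strand, 6041218 to 6217173) was at 6552, 6103 and 6232 with GalNAc-siNC and at 6907, 6968 and 7176 with GalNAc-siRnf10. The ranges did not overlap, but the log2 fold change of 0.16 (95% interval 0.04 to 0.28) missed the threshold in edgeR (adjusted p = 0.0802). Without GalNAc-siNC-treated mouse 1 it was 0.18 and passed (edgeR, adjusted p = 0.00342), and it passed as well in limma voom with sample quality weights (adjusted p = 0.0225) and under the GC and length correction (edgeR, adjusted p = 0.0182). The ratio of Slc25a15 to Slc25a13 counts went from 1.39 ± 0.0646 to 1.68 ± 0.0671 (SD, n = 3 each) without overlap.

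The mRNAs of all 3 cytosolic enzymes from citrulline to urea rose. Ass1 (ENSMUSG00000076441, chromosome 2 plus strand, 31470207 to 31520672) was at 39758, 47840 and 41659 normalized counts with GalNAc-siNC and at 75494, 77722 and 77364 with GalNAc-siRnf10. It had the largest log2 fold change of the 10 genes in the fit described, 0.84 (95% interval 0.70 to 0.97, edgeR, adjusted p = 5.2e-08). Without GalNAc-siNC-treated mouse 1, the lowest of its group here, the value was 0.78. Because of the copy shown above, the split of reads between Ass1 and Gm5424 is uncertain. Gm5424 was listed at 7436, 8280 and 8967 with GalNAc-siNC and at 14322, 13211 and 13655 with GalNAc-siRnf10, between 17.0% and 21.5% of Ass1 in every mouse. The sum of both, which does not depend on that split, gave a log2 fold change of 0.82 (SE 0.0587, edgeR, adjusted p = 3.38e-08).

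Asl (ENSMUSG00000025533, chromosome 5 minus strand, 130011258 to 130029247) was at 9085, 12528 and 11534 normalized counts with GalNAc-siNC and at 18232, 19029 and 18329 with GalNAc-siRnf10. It was the most variable of the 10 genes among GalNAc-siNC-treated mice, with a coefficient of variation of 16.0%, and mouse 1 was the lowest of them. Asl rose by a log2 fold change of 0.75 (95% interval 0.50 to 0.99, edgeR, adjusted p = 0.00241), and by 0.62 without mouse 1. Arg1 (ENSMUSG00000019987, chromosome 10 minus strand, 24915221 to 24927484), which releases urea, was at 33780, 37648 and 36465 with GalNAc-siNC and at 49272, 50000 and 49357 with GalNAc-siRnf10. The groups were apart and the log2 fold change was 0.46 (95% interval 0.35 to 0.57, edgeR, adjusted p = 9.77e-06). It was 0.42 without GalNAc-siNC-treated mouse 1, again the lowest of its group. Among the other settings of the fit, Arg1 was lowest under the GC and length correction, at 0.3675. Under that correction Asl (0.865) was above Ass1 (0.8431).

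Hal (ENSMUSG00000020017, chromosome 10 plus strand, 93488768 to 93519304), which lies on the histidine route and not in the cycle, was at 10870, 10601 and 10314 normalized counts with GalNAc-siNC and at 10745, 10868 and 10722 with GalNAc-siRnf10. All GalNAc-siRnf10-treated mice fell within the range of the GalNAc-siNC-treated mice. The log2 fold change was 0.02 (95% interval -0.09 to 0.14, edgeR, adjusted p = 0.811, exact two-sided permutation test, p = 0.5). The interval leaves out a rise of the size measured in any of the 7 called genes. For each of the 8 genes without overlap the exact two-sided permutation test gave p = 0.1, the smallest that 3 mice against 3 allow.

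**Figure D2:**
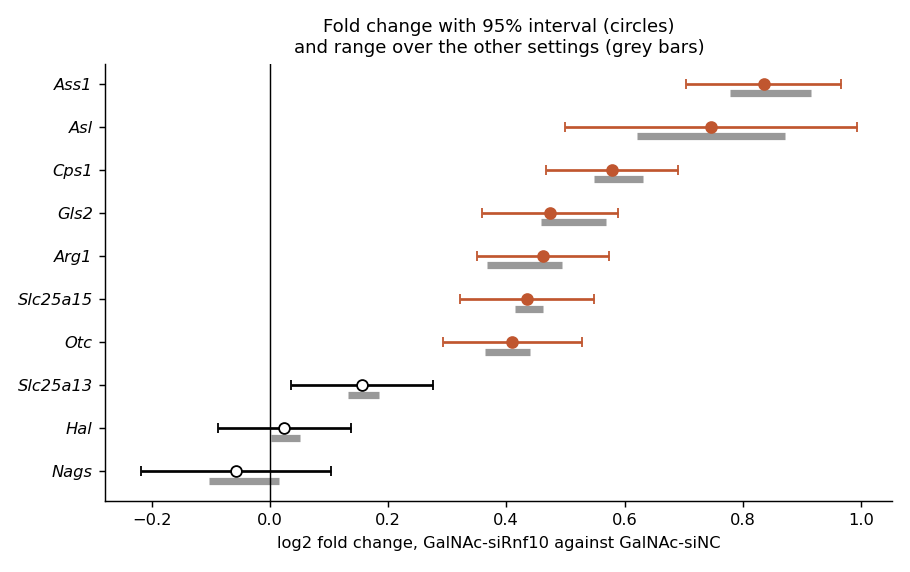
Log2 fold change (x axis) of the 10 genes, GalNAc-siRnf10 against GalNAc-siNC, with the 95% interval of edgeR's fit as whiskers. Filled orange circles passed an adjusted p of 0.05, open circles did not, and grey bars span the values from the 16 other settings of the fit. The 7 called genes stay above 0 in all of these settings, and the grey bar of Nags crosses 0.

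The count of 7 genes was the same in 12 of the 16 other settings of the fit and 8 in the other 4, which added Slc25a13. Each of the 7 called genes kept its call in all 16 settings, the highest adjusted p being 0.00586, for Asl without GalNAc-siRnf10-treated mouse 2. The smaller changes stand out less by size, since 3 of the 7 (Cps1, Ass1 and Asl) had a log2 fold change of at least 0.5.

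Levels of different genes were compared per kilobase of gene model, as a description. A gene model can be longer than any one transcript, to a degree that differs between genes. The model of Arg1 has 2228 bases and its longest transcript 1428 different 50-base words, against 5555 and 5506 for Cps1. The order and overlaps below hold for model length only, and levels per transcript length were not computed. Ass1 was first in both groups, at 17848 ± 1751 normalized counts per kilobase with GalNAc-siNC and 31839 ± 496 with GalNAc-siRnf10 (SD, n = 3 mice each). With GalNAc-siNC the order went on with Arg1 (16142 ± 890) and Cps1 (15235 ± 961), and the ranges of neighbours among these 3 genes overlapped. A wide gap followed down to Otc (2818 ± 157), then Asl (2287 ± 367), Gls2 (2208 ± 63.6), Hal (1909 ± 50.1), Slc25a13 (1658 ± 60.9), Slc25a15 (1553 ± 25.4) and Nags (586 ± 45.7). Of these, only Asl and Gls2 were neighbours whose ranges overlapped. With GalNAc-siRnf10, Cps1 (22752 ± 384) stood beside Arg1 (22237 ± 179) with overlapping ranges, and Asl (3836 ± 90.0) came just above Otc (3744 ± 2.46). The lowest Asl value was 3774 and the highest Otc value 3747, a margin too small to separate them. That SD of Otc is below what counting error alone would give, so it is not the precision of its level. Slc25a15 (2099 ± 54.7) was then above Hal (1942 ± 14.2) and Slc25a13 (1848 ± 37.0), with no overlap between neighbours, and Nags stayed last at 563 ± 25.5.

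**Figure D3:**
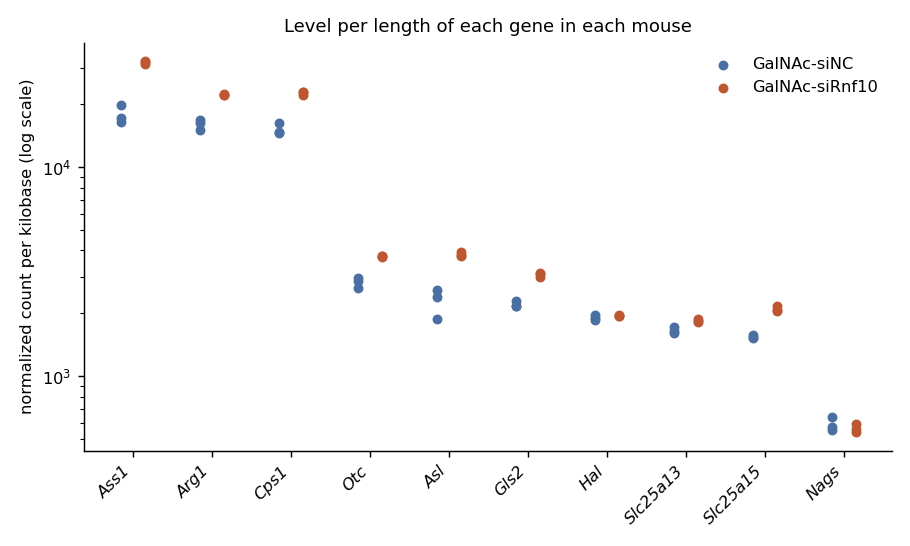
Normalized count per kilobase of gene model (y axis, log scale) of the 10 genes in each mouse, blue for GalNAc-siNC and orange for GalNAc-siRnf10, ordered by the GalNAc-siNC mean. Ass1, Arg1 and Cps1 lie at 14674 per kilobase or more in every mouse, above all other genes, and Nags at 637 or less.

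Ratios of counts within a library do not depend on how libraries are scaled to each other, and 6 were formed. Ass1 to Cps1 was 0.438, 0.587 and 0.511 with GalNAc-siNC and 0.592, 0.627 and 0.606 with GalNAc-siRnf10, apart by a small margin. Arg1 to Hal was 3.11, 3.55 and 3.54 against 4.59, 4.60 and 4.60, and Gls2 to Glul, the periportal enzyme that releases ammonia against the pericentral one that binds it, was 0.266, 0.253 and 0.247 against 0.330, 0.354 and 0.333. Asl to Ass1 overlapped between the groups, with means of 0.256 ± 0.0248 and 0.241 ± 0.00397 (SD, n = 3 each, exact two-sided permutation test, p = 0.4). The other 5 ratios did not overlap, each with p = 0.1 in the exact two-sided permutation test and 0.12 after Benjamini-Hochberg adjustment over the 6 ratios, so none passed 0.05.

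**Figure D4:**
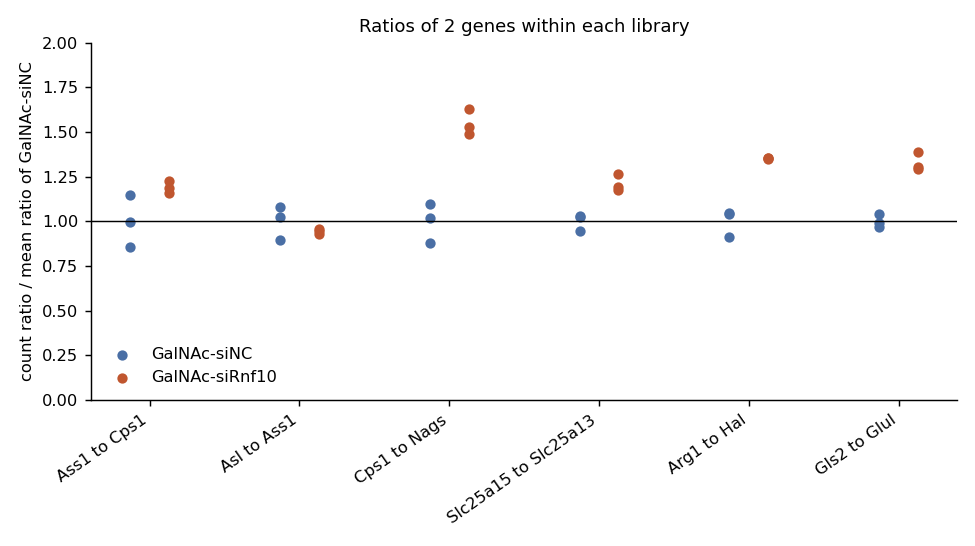
Ratio of the counts of a pair of genes within each library, divided by the mean ratio of the GalNAc-siNC group (y axis), with 1 point per mouse, blue for GalNAc-siNC and orange for GalNAc-siRnf10. The groups are apart for 5 ratios and overlap for Asl to Ass1.

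The genes around the cycle were described from 4 lists, of which 49 of 51 genes were tested. Of these, 22 (44.9%) were called higher and 0 lower in edgeR, and the median log2 fold change was 0.19. The shares called higher and lower were 6.71% and 7.28% over all genes tested, and 13.4% and 12.3% over the 3512 abundant genes. The lists were chosen with earlier results of these data known, so their counts are a description.

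Among the genes that serve the cycle directly, 4 of 9 tested were called higher. Slc7a2, which carries arginine and ornithine across the plasma membrane, was at 12715, 10516 and 11663 normalized counts with GalNAc-siNC and at 19155, 18292 and 19340 with GalNAc-siRnf10, and its log2 fold change was 0.70 (edgeR, adjusted p = 8e-07). Fh1 (0.31), which hydrates the fumarate that Asl releases, and the malate dehydrogenases Mdh1 (0.27) and Mdh2 (0.29), which return malate to oxaloacetate, rose by smaller log2 fold changes. Mdh2 lost its call whenever any one GalNAc-siRnf10-treated mouse was left out. The other 5 had log2 fold changes between -0.12 and 0.26 and did not pass.

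In the list of glutamate, glutamine and aminotransferase genes, which also holds amino acid transporters, 9 of 17 genes were called higher. Got1, the cytosolic aspartate aminotransferase, was at 4145, 4818 and 4376 normalized counts with GalNAc-siNC and at 10331, 10310 and 10326 with GalNAc-siRnf10, and its log2 fold change was 1.22 (edgeR, adjusted p = 7.62e-10). Those groups lay far apart, while its mitochondrial partner Got2 had a log2 fold change of 0.12 (edgeR, adjusted p = 0.179). The alanine aminotransferases Gpt (0.42) and Gpt2 (0.31) and the ornithine aminotransferase Oat (0.47) rose on the same log2 scale. So did amino acid transporters, with Slc38a2 at 0.97, Slc1a5 at 0.72, the glutamate carrier Slc1a2 at 0.33 and Slc38a4 at 0.23, and the asparagine synthetase Asns at 0.57. Slc38a4 and Slc1a5 each lost the call without GalNAc-siRnf10-treated mouse 1 or without mouse 3. The remaining 8 genes were not called.

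In the breakdown of amino acids, 9 of 20 genes were called higher. Tat, which starts tyrosine breakdown, was at 24332, 24458 and 22808 normalized counts with GalNAc-siNC and at 63753, 63784 and 62605 with GalNAc-siRnf10, and its log2 fold change was 1.41 (edgeR, adjusted p = 6.13e-12). The cystathionine lyase Cth (0.79) and the serine dehydratase Sds (0.64), both of which free ammonia, followed on the log2 scale. Bckdhb (0.63) and Dbt (0.39), subunits of the branched-chain ketoacid dehydrogenase, rose as well, as did the cysteine dioxygenase Cdo1 (0.33), the lysine enzyme Aass (0.31) and the proline and hydroxyproline dehydrogenases Prodh (0.27) and Prodh2 (0.28). Prodh lost its call without GalNAc-siRnf10-treated mouse 1 or 2, and Prodh2 without any one of the GalNAc-siRnf10-treated mice. Of the glycine cleavage and other genes not called, 11 lay between -0.06 and 0.19.

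For histidine breakdown after Hal, the mRNAs of Uroc1, Amdhd1 and Ftcd were read, whose enzymes take urocanate down to glutamate. Their log2 fold changes were 0.10 (edgeR, adjusted p = 0.276), 0.17 (adjusted p = 0.0794) and 0.12 (adjusted p = 0.274), so that 0 of 3 were called. Under the GC and length correction, added after seeing the data, Uroc1 and Ftcd passed, and Ftcd also without GalNAc-siNC-treated mouse 2.

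Of 16 genes of transcription factors, receptors and other proteins linked to control of these enzymes, 3 were called higher (18.8%) and 0 lower. That share was near the 13.4% called higher among the abundant genes, so the count is no result about this list. Klf15, a transcription factor linked to amino acid breakdown, was at 3182, 3942 and 3544 normalized counts with GalNAc-siNC and at 5912, 6224 and 6127 with GalNAc-siRnf10, and its log2 fold change was 0.78 (edgeR, adjusted p = 9.6e-07). Foxo1 (0.57) and Foxo3 (0.35), factors restrained by insulin, also rose. The other 13 lay between -0.27 and 0.57 on the log2 scale. Without GalNAc-siNC-treated mouse 1, 7 of the 16 were called, counting both directions, and 5 under the GC and length correction. More genes were called in those fits generally, 2864 of 14343 tested and 2451 of 14046, against 1965 of 14046 in the fit described.

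**Figure D5:**
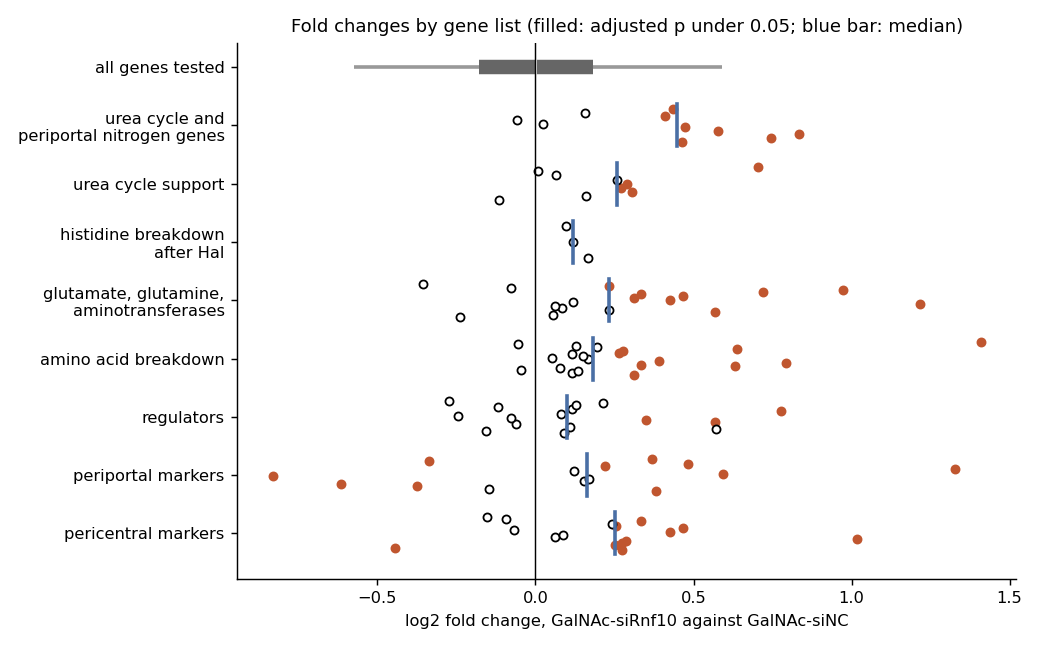
Log2 fold change (x axis), GalNAc-siRnf10 against GalNAc-siNC, of every tested gene of 8 lists, with 1 point per gene, filled where the adjusted p was under 0.05 and with the list median as a blue bar. The grey bars of all genes tested span the 5th to 95th (thin) and the 25th to 75th percentile (thick). The called genes of the nitrogen and regulator lists lie to the right of 0, and both zonation lists have called genes on either side.

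Markers of the zones of the lobule were called in both directions. Of 14 periportal markers, 6 (42.9%) were higher and 4 (28.6%) lower. Over all genes tested, 6.71% were called higher and 7.28% lower, and over the 3512 abundant genes 13.4% and 12.3%. Pck1 (0.48) and G6pc (0.59) of glucose output, the steroid enzyme Hsd17b6 (1.33), Aldh1b1 (0.38), Sult5a1 (0.37) and the growth factor Igf1 (0.22) rose on the log2 scale, while the fibrinogen chain Fgb (-0.83), Ctsc (-0.61), Cdh1 (-0.37) and Pigr (-0.34) fell. Cyp2f2, an often used periportal marker, was at 28996, 32407 and 29920 normalized counts with GalNAc-siNC and at 34139, 34557 and 32931 with GalNAc-siRnf10. These ranges did not overlap, and the log2 fold change of 0.15 missed the threshold (edgeR, adjusted p = 0.0722). Cyp2f2 passed without GalNAc-siNC-treated mouse 1, without GalNAc-siNC-treated mouse 2 and in limma voom with sample quality weights. Of 16 pericentral markers, 9 (56.25%) were higher and 1 (6.25%) lower. Glul, Oat and Slc1a2 also stand in the list of glutamate, glutamine and aminotransferase genes, so the rises of Oat and Slc1a2 are counted in both lists. Their median log2 fold change was 0.25, against 0.16 over the periportal list. Cyp7a1 of bile acid synthesis (1.02), Oat (0.47), Lect2 (0.42), Slc1a2 (0.33), Cyp2e1 (0.29), Aldh1a1 (0.28), Cyp2c29 (0.27), Rgn (0.26) and Cyp1a2 (0.25) rose, and Axin2 (-0.44) fell. Glul was at 28316, 31346 and 30658 normalized counts with GalNAc-siNC and at 31559, 30605 and 32120 with GalNAc-siRnf10, with a log2 fold change of 0.06 (edgeR, adjusted p = 0.509). Aldh1b1, Sult5a1 and Igf1 lost their calls without one or another GalNAc-siRnf10-treated mouse, Rgn under the GC and length correction, and Axin2 in 10 of the 16 other settings.

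Markers of hepatocytes were abundant, as the tissue label has it, and in bulk liver fewer cells of a type and less RNA per cell cannot be told apart. The counts below stand beside 6.71% called higher and 7.28% lower over all genes tested, and 13.4% and 12.3% over the abundant genes. In lists this short they are a description. Of 6 hepatocyte markers, 3 were called higher, namely Alb (0.64), Ttr (0.66) and Serpina1c (0.44), and Trf (-0.20) was called lower. Their summed normalized count was 2098470 to 2163290 with GalNAc-siNC and 2727440 to 2810220 with GalNAc-siRnf10. Alb was the largest part of it, with means of 1159040 and 1805570. For 5 Kupffer cell markers, 0 were called, with sums of 4117 to 4785 and 4437 to 4637. Of 5 endothelial markers, Clec4g (0.52) and Lyve1 (0.55) were called higher, with sums of 1679 to 1685 and 1742 to 1845, and of 5 stellate cell markers Dcn (0.36) and Reln (0.35) were, with sums of 2551 to 2614 and 3018 to 3047. Dcn was the largest part of the stellate sums, with means of 1457 and 1865. Of 5 cholangiocyte markers, Spp1 (-0.90) was called lower, with sums of 2033 to 2073 and 1122 to 1154. Spp1 itself made up most of these sums, with means of 1836 and 982, and the other 4 markers were not called. Among lymphocyte and neutrophil markers, 3 of 5 were tested and S100a9 (-1.43) was called lower, with sums of 209 to 252 and 182 to 251, and of 3 red cell markers 0 were called, with sums of 7216 to 9215 and 8179 to 9049. Ttr, Trf, Serpina1c, Reln and S100a9 each lost the call when one or another mouse was left out. Lyve1 kept its call in 7 of the 16 other settings and lost it with all 6 mice in DESeq2, in limma voom and with the replicate block. The part of these shifts in the results above was not tested.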

How the data were processed

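Counts came from liver RNA of 6 mice. The authors prepared stranded mRNA libraries, aligned the read pairs to GRCm38 (HISAT2) and deposited raw, unnormalized counts for each gene together with the length of its model in bases. They named DESeq2 for their own tests, which were not used here. The counting tool, annotation release and strand setting are not given in the sources used here, so genes with an antisense or near-identical partner may share reads. Samples were grouped by their titles. Of 55487 identifiers, 346 had no symbol in GENCODE M21.

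Total counts of 26854377 to 33058645 allowed every member gene at least 1440 counts in each mouse. Differential expression was computed by edgeR 4.0.16 under R 4.3.3 (TMM scaling after filterByExpr on the groups, robust quasi-likelihood F-test, Benjamini-Hochberg adjustment over 14046 genes, treatment as the only covariate) and called at an adjusted p under 0.05. The biological coefficient of variation, from a dispersion common to all genes and both groups, was 9.28%. The fit takes the same dispersion of a gene for both groups. Their spread differed, with median coefficients of variation among abundant genes of 7.23% with GalNAc-siNC and 3.01% with GalNAc-siRnf10. Exact two-sided permutation tests used the 20 divisions of the 6 mice. The 95% intervals are those of the edgeR fit.

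The 10 genes, the gene lists and the tests were chosen with earlier results of these data known. The text names Rnf10, the 10 genes, Cyp2f2, Pck1, Glul, Oat and Cyp2e1, the called genes of the lists and every tested gene of lists of 5 or fewer, the cell markers of which are given as sums where not called. Got2, the overlapping Gm11586 and Spryd4 and the copy Gm5424 were named after their values were seen. Alternatives were RLE and upper quartile normalization, the 20 most abundant genes left out of the normalization, DESeq2 1.42.0, no filter, a filter of 10 counts or more in all mice, a block for the replicate number, voom in limma 3.58.1 with sample quality weights, stricter thresholds and each mouse left out. A GC content and gene length correction (splines with 5 degrees of freedom as offsets), alone and with the block, was added after seeing the data. The steps were tested on simulated data. Figures were drawn with matplotlib 3.10.9. Tf was matched to the symbol Trf.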

Additional observations from a re-analysis of the deposited data

How the results depend on the processing

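Across 16 other settings of the fit, the 7 called genes kept their direction and call, Hal and Nags were not called in any, and Slc25a13 was called in 4. Nags was reversed to 0.0121 by the GC content and gene length correction, to 0.0149 by that correction with the replicate block and to 0.0058 without GalNAc-siNC replicate 2, each with an edgeR adjusted p of at least 0.909, and ranged from -0.103 to 0.0058 with each mouse left out. The count of called genes among the 10 was 7 to 8 with each mouse left out and 3 where an absolute log2 fold change of 0.5 or more was also required. Among the 49 nitrogen genes of the other 4 lists it was 17 to 24 with each mouse left out and 9 with that minimum. Over all genes, 1965 were called, against 1053 to 2864 with each mouse left out (2864 without GalNAc-siNC replicate 1; 1053, 1128 and 1128 without GalNAc-siRnf10 replicates 1, 2 and 3), 1042 at an adjusted p under 0.01 and 823 with that minimum fold change. Without the division by length, 8 of the 20 ranks of level kept their place. Same-numbered mice are different animals, and their deviations correlated by -0.00436, 0.0183 and -0.0321, so the numbers do not pair them. With the replicate block, 7 of the 10 genes, 22 of the 49 and 1816 of all genes were called.

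With 3 mice per group the exact tests cannot pass 0.05, and GalNAc-siNC replicate 1, which took a voom weight of 0.376, stood apart from its group. Counting error is small at these depths. The Ass1 value depends on how reads shared with Gm5424 were counted.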

Other observations

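The 10 urea cycle and periportal nitrogen genes varied less among GalNAc-siRnf10-treated mice than among GalNAc-siNC-treated mice. Their median coefficient of variation was 5.55% with GalNAc-siNC and 1.80% with GalNAc-siRnf10, and it was smaller with GalNAc-siRnf10 in 9 of the 10 genes, Slc25a15 being the exception (1.64% and 2.61%). The 3512 tested genes whose normalized counts averaged 1000 or more had medians of 7.23% and 3.01%, and 85.5% of them were less variable with GalNAc-siRnf10, so the narrower spread was not particular to the 10 genes. Deviations from the group mean ran against GC content across genes in GalNAc-siNC-treated mouse 1 (correlation -0.30) and with it in mouse 2 (0.31), genes not being independent replicates, and were within 0.07 of 0 in the other 4 libraries. The GC content of the 10 transcripts ranged from 41.1% in Otc to 59.7% in Nags.

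Cebpb, the gene of a transcription factor of amino acid metabolism and the acute phase, was singled out after its values were seen. It was at 1648, 3966 and 3141 normalized counts with GalNAc-siNC and at 4302, 4065 and 4621 with GalNAc-siRnf10, and its log2 fold change of 0.57 was not called (edgeR, adjusted p = 0.402). It was called without GalNAc-siNC-treated mouse 1, the library that stood apart, and in none of the other 15 settings.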
